A study of Homo sapiens with 8 samples.

Results

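The genes described here are the sensors, activating proteases and transcription factors of the unfolded protein response: ERN1, EIF2AK3, ATF6, ATF6B, XBP1, MBTPS1, MBTPS2, CREB3, CREB3L1 and CREB3L2. They were chosen by name, and all 10 were found among the 58735 genes of the deposited count table. RNA was sequenced from SW480, an established human colorectal adenocarcinoma cell line. The 4 vector control libraries come from cells infected with the control lentivirus, and the 4 SPOCK1 overexpression libraries from cells infected with a lentivirus carrying SPOCK1 with a FLAG tag. SPOCK1 is a proteoglycan that cells secrete into their matrix. Both groups were kept under puromycin, and the labels give the same batch for every library. Whether the 4 libraries of a group were grown or infected separately is not in the labels. Every p-value here is thus set against the spread of these libraries alone, which may be technical, and SPOCK1 cannot be told apart from other differences between the selected populations.

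The unfolded protein response adjusts the endoplasmic reticulum to its load of secretory protein. IRE1, encoded by ERN1, is a transmembrane kinase and RNase that removes a short intron from XBP1 mRNA, so that a stronger transcription factor is made. PERK, encoded by EIF2AK3, phosphorylates the translation factor eIF2 alpha, which slows protein synthesis and favours translation of ATF4. ATF6, its paralogue ATF6B and the CREB3 family are made as membrane proteins, travel to the Golgi and are cut there by the site-1 and site-2 proteases, the products of MBTPS1 and MBTPS2, to free a transcription factor. Much of this control acts on protein and on splicing, which counts of reads per gene do not measure.

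Libraries held 35643585 to 42812951 counts. Counts of SPOCK1 itself were 6, 0, 3 and 6 in controls and 6719, 7828, 9712 and 8964 in the libraries labelled as overexpressing it. All 10 colorectal epithelial markers had counts, with a summed level of 13070 to 15920 CPM (counts scaled to library size, with TMM factors) in controls and 14630 to 16310 with SPOCK1. Of the 9 tested, CDH1 (E-cadherin) fell, from 17.8 to 11.2 CPM in the group means (edgeR, adjusted p = 0.00537), and the others did not pass. Of all genes tested 0.798% fell. The groups did not overlap in 2 of the 9 (22.2%), CDH1 and VIL1, against 8.23% of all genes tested. The part of the CDH1 fall in the results below was not tested. The 5 fibroblast, 4 endothelial and 5 leukocyte markers summed to at most 1.23, 1.27 and 1.88 CPM in any library, and DCN, LUM, CDH5 and KDR were at 0 throughout. Ribosomal RNA genes, mitochondrial and other together, took 0.697% to 0.738% of counts in controls and 0.56% to 0.67% with SPOCK1, without overlap. The part of this difference in the results below was not tested.

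None of the sensors, proteases and factors passed the test between the groups. Several genes that they are known to control did, in lists drawn up with earlier results of these data known. CREB3L1 was too low to be tested. In edgeR's quasi-likelihood test, with p adjusted over 15790 genes and a threshold of 0.05, 0 of the other 9 genes rose and 0 fell. Of all genes tested 1.04% passed, with 0.247% rising and 0.798% falling, so 0 of 9 is near that share and no result about these genes. With offsets for GC content and length, where 2.32% of all genes rose and 1.61% fell, 0 of the 9 passed too. At an unadjusted p under 0.05 there was 1 gene, XBP1, of 9, against 13.7% of all genes tested, and limma-voom also called 0, as did DESeq2, where 0.875% of all genes rose and 1.88% fell. Their median log2 fold change was -0.01, with a range of -0.22 to 0.22, beside a median of -0.0042 over all genes. The groups did not overlap in 1 of the 9, again XBP1, or 11.1%, against 8.23% of all genes tested, so neither share is a result about these genes.

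**Figure D1:**
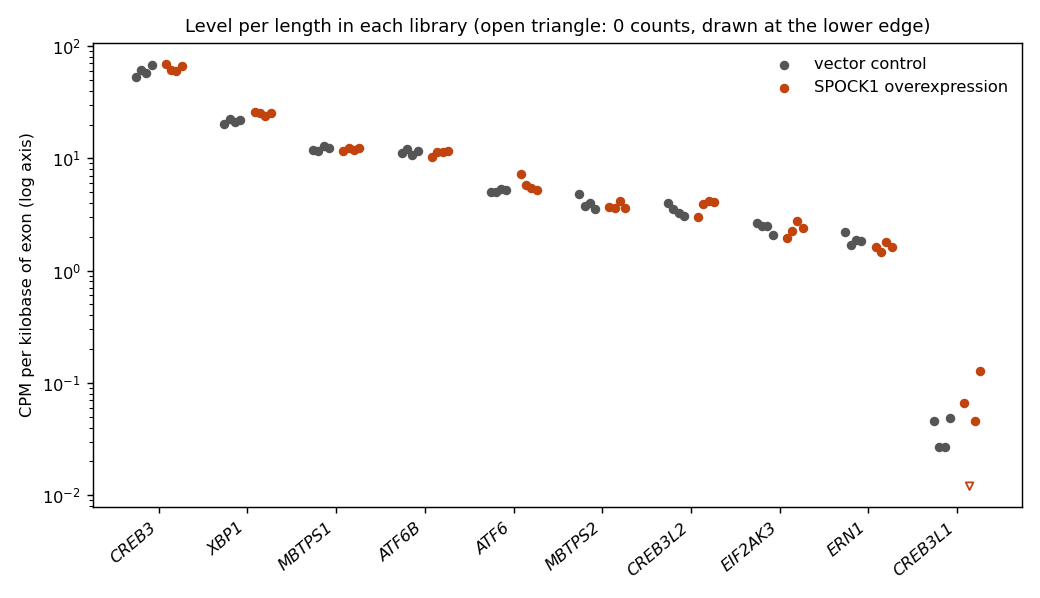
Level of each gene per kilobase of exon in each library (CPM per kilobase, log axis), with vector controls in grey and SPOCK1 libraries in orange. CREB3 stood highest and ERN1 lowest among the 9 genes above a trace level, with CREB3L1 far below them.

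In control cells the levels spanned a wide range. Per kilobase of exon, CREB3 stood highest at 59.7 ± 6.06 (CPM per kilobase, SD, n = 4), followed by XBP1 at 21.5 ± 0.94. MBTPS1 at 12.1 ± 0.49 and ATF6B at 11.4 ± 0.67 had overlapping ranges, with MBTPS1 above in 3 of 4 libraries. ATF6 came next at 5.18 ± 0.17, below its paralogue ATF6B. MBTPS2 at 4.00 ± 0.56 and CREB3L2 at 3.45 ± 0.41 overlapped, although MBTPS2 was above CREB3L2 in every control library. The kinase sensors were the lowest of the genes that could be tested. EIF2AK3 stood at 2.43 ± 0.26 and ERN1 at 1.90 ± 0.21, with overlapping ranges, and ERN1 was at 0.0317 of the level of CREB3. Each other neighbouring pair in this order had ranges apart in controls. With SPOCK1, CREB3L2 (3.81 ± 0.55) and MBTPS2 (3.75 ± 0.27) changed places, with overlapping ranges, and the rest of the order was that of controls.

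This order rests partly on the length used. The deposited length joins all exons of a gene, which for MBTPS1 gives 10238 bases against 4338 in its longest GENCODE transcript. On the longest transcript, MBTPS1 rose to 28.7 ± 1.15 per kilobase in controls and overlapped XBP1 at 30.0 ± 1.31, and MBTPS2 at 8.02 ± 1.13 lay above ATF6 at 5.45 ± 0.18. CREB3 remained first, and EIF2AK3 and ERN1 remained the lowest above CREB3L1.

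**Figure D2:**
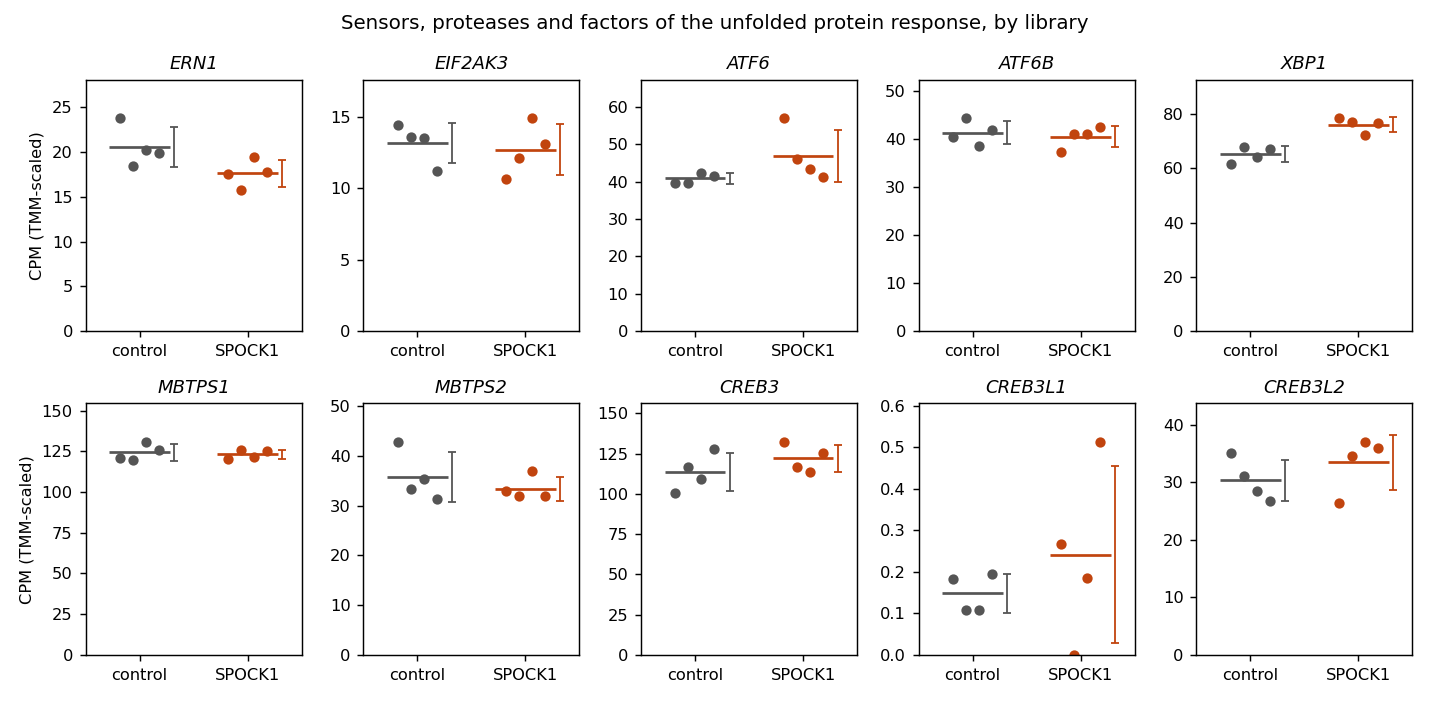
CPM of each of the 10 genes in each library, vector controls in grey and SPOCK1 in orange, with the group mean as a line and its SD as a bar beside it (n = 4). Each vertical axis starts at 0, and XBP1 is the gene whose groups lie apart, at 61.8 to 68.0 and 72.3 to 78.5 CPM.

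ERN1 (chromosome 17, 64039142 to 64130819, minus strand) encodes IRE1. It stood at 23.8, 18.5, 20.2 and 19.9 CPM in controls 1 to 4 and at 17.5, 15.8, 19.4 and 17.7 with SPOCK1. All SPOCK1 libraries lay below the control mean, but the groups overlapped through SPOCK1 library 3 and control library 2. The log2 fold change was -0.22 ± 0.11 (SE, adjusted p = 0.379), with a 95% interval of -0.45 to 0.01. All 95% intervals given here are for single genes, without adjustment. Without control library 1, the highest, the value was -0.15. Its paralogue ERN2, known from mucosal epithelia, had 4 counts over all controls and 4 over all SPOCK1 libraries, so IRE1 transcripts in these cells were almost all from ERN1.

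EIF2AK3 (chromosome 2, 88556741 to 88627576, minus strand), which encodes PERK, stood at 14.4, 13.6, 13.5 and 11.2 CPM in controls and at 10.7, 12.1, 14.9 and 13.1 with SPOCK1. SPOCK1 libraries held both the highest and the lowest value. Its log2 fold change was -0.05 ± 0.13 (adjusted p = 0.897, 95% interval -0.32 to 0.21), and without SPOCK1 library 1 it was 0.02. Exons of AC104134.1, on the other strand, cover 14.4% of its exonic bases. The strand setting of the counting is not given in the sources used here, so reads of such overlaps cannot be told apart.

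ATF6 (chromosome 1, 161766294 to 161964070) stood at 39.8, 39.7, 42.4 and 41.6 CPM in controls, a coefficient of variation of 3.33%. With SPOCK1 it stood at 57.0, 46.1, 43.3 and 41.3 CPM, a coefficient of variation of 14.9%. The spread came from SPOCK1 library 1, and SPOCK1 library 4 lay within the range of controls. The log2 fold change was 0.20 ± 0.10 (adjusted p = 0.405, 95% interval -0.01 to 0.41), and without SPOCK1 library 1 it was 0.09.

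ATF6B (chromosome 6, 32115264 to 32128253, minus strand), a paralogue regarded as a weaker activator than ATF6, stood at 40.4, 44.4, 38.6 and 41.9 CPM in controls and at 37.3, 41.1, 41.1 and 42.4 with SPOCK1. The groups overlapped almost fully. Its log2 fold change was -0.03 ± 0.09 (adjusted p = 0.919, 95% interval -0.21 to 0.15), and 0.04 with per-library offsets for GC content and length. Exons of AL662884.2, on the same strand, cover 7.96% of its exonic bases. Per length, ATF6 made up 31.3% ± 1.81 of ATF6 and ATF6B together in controls and 34.7% ± 4.56 with SPOCK1 (SD, n = 4 each). The share was 41.3% in SPOCK1 library 1 and 30.91% to 34.03% in the others, against 29.2% to 33.6% in controls. The difference of 3.4 percentage points had an exact two-sided permutation p of 0.2 (0.6 adjusted over the 3 shares tested).

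MBTPS1 (chromosome 16, 84053761 to 84116906, minus strand) encodes the site-1 protease, which cuts ATF6 and also the sterol-regulated SREBP factors. It had the narrowest interval of the 9 genes tested. Controls stood at 120.9, 119.9, 130.8 and 125.6 CPM and SPOCK1 libraries at 120.1, 125.9, 121.7 and 125.3. The log2 fold change of -0.01 ± 0.07 (adjusted p = 0.956) has a 95% interval of -0.16 to 0.14, which is 0.894 to 1.10 as a fold. The direction was upward, at 0.07, with GC content and length offsets.

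MBTPS2 (chromosome X, 21839636 to 21885424), the site-2 protease that makes the following cut within the membrane, stood at 42.8, 33.3, 35.4 and 31.4 CPM in controls and at 32.89, 31.95, 37.0 and 31.93 with SPOCK1. Control library 1 was the highest of all. Its fitted log2 fold change was -0.10 ± 0.11 (adjusted p = 0.739, 95% interval -0.32 to 0.13), and 0.0039 without that library. Exons of YY2, on the same strand, cover 12.2% of its exonic bases. MBTPS1 made up 75.3% ± 2.87 of both proteases per length in controls and 76.3% ± 1.55 with SPOCK1 (exact two-sided permutation p = 0.686, adjusted p = 0.886).

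CREB3 (chromosome 9, 35732335 to 35737004), also called Luman, is a membrane-bound factor that is known to respond to Golgi stress. It stood at 100.5, 116.6, 109.4 and 127.8 CPM in controls and at 132.3, 116.9, 113.4 and 125.6 with SPOCK1, with overlap. Its fitted log2 fold change was 0.10 ± 0.09 (adjusted p = 0.639, 95% interval -0.08 to 0.29). It was 0.23 within libraries 1 and 3 and -0.01 within libraries 2 and 4. Exons of GBA2 and TLN1, on the other strand, cover 7.30% and 3.21% of its exonic bases.

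CREB3L2 (chromosome 7, 137874979 to 138002067, minus strand) is a factor that is known to raise COPII transport genes in secretory cells. It stood at 34.98, 31.1, 28.4 and 26.8 CPM in controls and at 26.4, 34.5, 37.0 and 35.9 with SPOCK1. SPOCK1 library 1 was the lowest of all 8, SPOCK1 libraries 3 and 4 lay above all controls, and SPOCK1 library 2 above all but control library 1. Its fitted log2 fold change was 0.14 ± 0.12 (adjusted p = 0.629, 95% interval -0.10 to 0.39), 0.24 without SPOCK1 library 1, 0.28 within libraries 2 and 4 and 0.0037 within libraries 1 and 3. CREB3L2 made up 5.53% ± 1.10 of CREB3, CREB3L1 and CREB3L2 per length in controls and 5.64% ± 1.05 with SPOCK1 (exact two-sided permutation p = 0.886, adjusted p = 0.886).

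CREB3L1 (chromosome 11, 46277661 to 46321422), also called OASIS and known from bone, glia and collagen-producing cells, was nearly absent. It had 7, 4, 4 and 8 counts in controls and 10, 0, 8 and 18 with SPOCK1. SPOCK1 libraries 2 and 4 held the lowest and the highest count, and the library with 0 allows up to 0.0855 CPM. It did not pass the filter on low counts, and with no filter beyond 1 count its log2 fold change was 0.68 ± 0.76 (edgeR, adjusted p = 0.713).

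XBP1 (chromosome 22, 28794555 to 28800597, minus strand) was the gene closest to the threshold. It stood at 61.8, 68.0, 64.1 and 67.1 CPM in controls and at 78.5, 77.0, 72.3 and 76.7 with SPOCK1, and every SPOCK1 library was above every control. The log2 fold change was 0.22 ± 0.08, a ratio of 1.17 with a 95% interval of 1.04 to 1.30. The unadjusted p of 0.00948 was reached or passed by 724 of the 15790 genes tested, and the adjusted p was 0.206. Over 21 alternatives the log2 fold change was 0.18 to 0.26 and the adjusted p 0.0976, with DESeq2, to 0.462, within libraries 2 and 4 alone. XBP1 was thus higher in every SPOCK1 library without passing the test over all genes.

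Total XBP1 reads do not tell the forms of its mRNA apart. The stretch that IRE1 removes is shown because it decides which protein is made. It lies within an exon on GRCh38 at chr22:28796127-28796152, minus strand, and is present in 4 GENCODE transcripts of XBP1 and spliced out of 2. Below it stands in capitals, with 20 bases on each side.
XBP1 mRNA around the IRE1 intron: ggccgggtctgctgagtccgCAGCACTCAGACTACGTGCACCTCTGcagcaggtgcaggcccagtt
The removed stretch has 26 bases, which is no multiple of a codon, so its loss shifts the reading frame. Reads with and without it were counted for the same gene, and splicing was not analysed here.

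XBP1 is itself a known target of ATF6, through the endoplasmic reticulum stress element (ERSE, the letters CCAAT and CCACG with 9 bases of any kind between them). Promoters were searched on both strands for it, for ERSE-II (ATTGG and CCACG with 1 base between them), for the UPR element (UPRE, TGACGTGG) and for the cAMP response element (CRE, TGACGTCA), from 250 bases before to 50 after the RefSeq start (GRCh38.p14). All 10 genes had a promoter there. XBP1 alone held an ERSE or ERSE-II, CREB3L2 alone a CRE, and none a UPRE. Of 14896 promoters of protein-coding genes, 19 held an ERSE (0.128%), 12 an ERSE-II (0.0806%), 127 a UPRE (0.853%) and 386 a CRE (2.59%). The 250 bases before the start of XBP1 are shown with those of HSPA5, which encodes the chaperone BiP, since both hold the element and differ in response. Capitals mark the fixed letters of the ERSE.
XBP1, chr22:28800570-28800819, minus strand: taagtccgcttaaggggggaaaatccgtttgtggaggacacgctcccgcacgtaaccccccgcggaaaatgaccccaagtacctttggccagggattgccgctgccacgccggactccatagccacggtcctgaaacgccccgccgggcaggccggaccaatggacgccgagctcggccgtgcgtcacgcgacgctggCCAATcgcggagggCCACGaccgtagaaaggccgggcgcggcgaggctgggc
HSPA5, chr9:125241344-125241593, minus strand: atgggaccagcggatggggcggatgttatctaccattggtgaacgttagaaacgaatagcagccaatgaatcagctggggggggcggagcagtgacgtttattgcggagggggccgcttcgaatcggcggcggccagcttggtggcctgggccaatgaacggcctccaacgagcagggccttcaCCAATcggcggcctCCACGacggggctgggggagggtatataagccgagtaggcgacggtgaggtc
The element ends 33 bases before the start of XBP1 and 47 before that of HSPA5, in the direction of the gene in both.

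Known targets of ATF6 rose. Of 14 tested, 10 rose and 0 fell, against 0.247% rising among all genes tested, with a median log2 fold change of 0.59. The count was 9 to 10 with any library left out and 9 within libraries 2 and 4, but 0 within libraries 1 and 3, where 8 genes in all were called. HSPA5 stood at 522.5, 476.8, 458.9 and 443.1 CPM in controls and at 775.1, 798.9, 836.2 and 855.5 with SPOCK1, a log2 fold change of 0.78 ± 0.08 (adjusted p = 3.42e-05). SDF2L1, a luminal chaperone cofactor, stood at 41.2 to 48.4 CPM in controls and 71.5 to 81.0 with SPOCK1 (log2 fold change 0.78 ± 0.09, adjusted p = 8.95e-05). MANF, a secreted stress factor, rose 1.75-fold (adjusted p = 5.69e-05), and HERPUD1, a membrane protein of degradation at the endoplasmic reticulum, rose 1.46-fold (adjusted p = 0.0011). DERL3, SYVN1, SEL1L and CANX, named here as the 4 that did not pass and chosen after their values were seen, had log2 fold changes of 0.05, 0.13, 0.23 and 0.26. Exons of SMARCB1 on the other strand cover 77% of the exonic bases of DERL3. These lists were drawn up with earlier results of these data known, so their counts are not independent evidence.

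**Figure D3:**
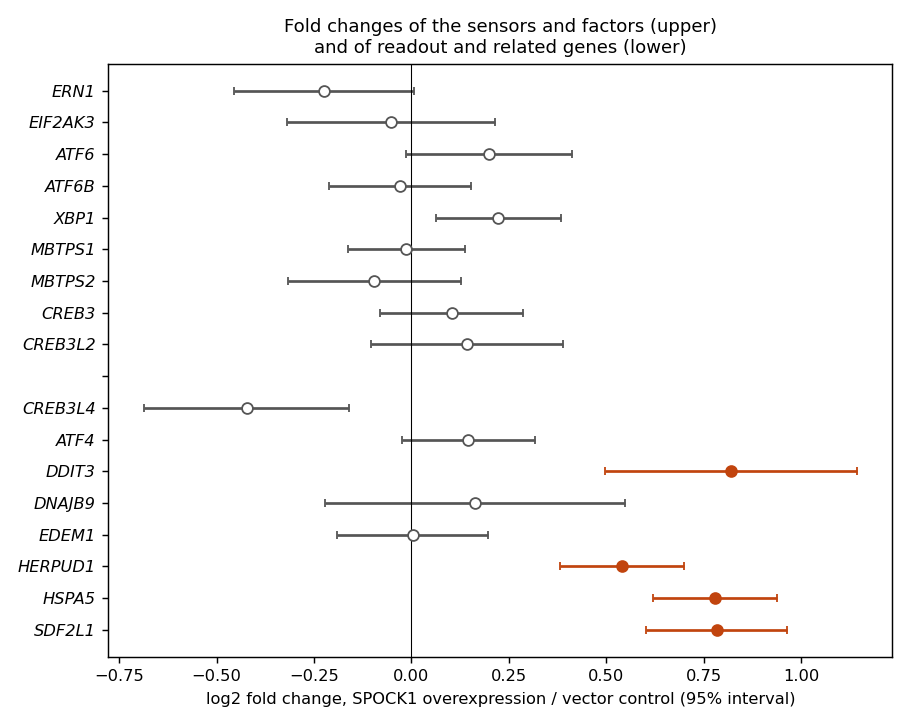
Log2 fold change of SPOCK1 overexpression over vector control with its 95% interval, for the 9 tested sensors and factors (upper) and for readout and related genes (lower). Filled orange points passed an adjusted p under 0.05: DDIT3, HERPUD1, HSPA5 and SDF2L1 did, and all 9 upper genes lay between -0.22 and 0.22.

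The gap between HSPA5 and its regulators can also be read within each library, from the ratio of HSPA5 counts to each gene's counts, which needs no scaling of library size. The ratios were formed after HSPA5 was seen to rise, so they are a description, with no test. The ratio to XBP1 was 8.46, 7.01, 7.16 and 6.61 in controls 1 to 4 and 9.87, 10.4, 11.6 and 11.2 with SPOCK1. HSPA5 therefore gained 1.47-fold on XBP1 even though XBP1 stood higher too. The ratio to ERN1 was 21.97, 25.8, 22.7 and 22.3 in controls and 44.3, 50.6, 43.1 and 48.3 with SPOCK1, a 2.01-fold difference and the widest of the 9. The ratio to ATF6 was 10.7 to 13.1 in controls and 13.6 to 20.7 with SPOCK1, where SPOCK1 library 1 came close to control library 1. For each of the 9 genes the ratio was higher in all 4 SPOCK1 libraries than in all 4 controls, by 1.47-fold to 2.01-fold. The 9 ratios share HSPA5, so each difference carries its rise.

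**Figure D4:**
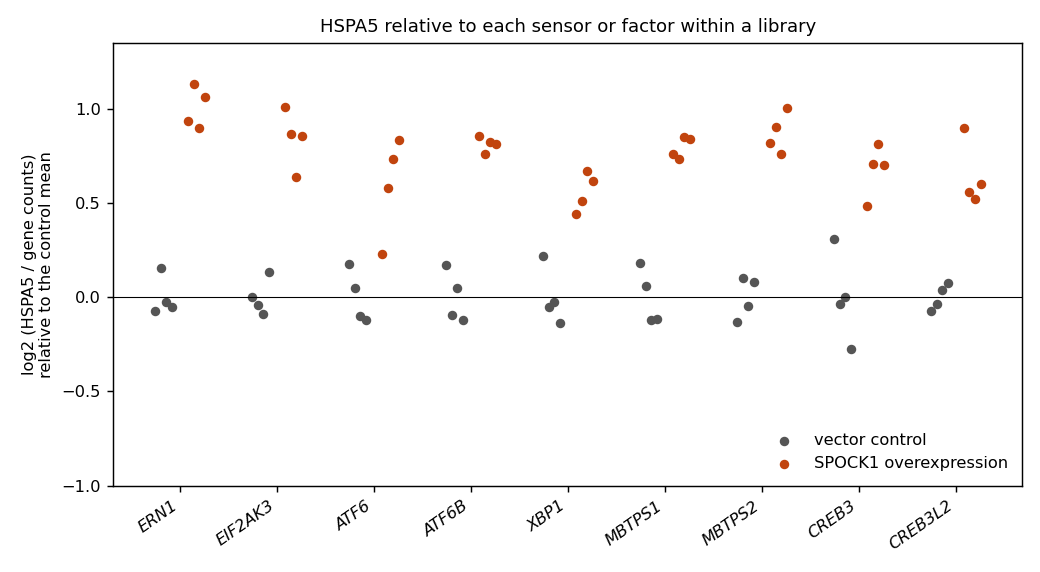
Log2 ratio of HSPA5 counts to the counts of each sensor or factor in each library, relative to the mean of the vector controls, with controls in grey and SPOCK1 libraries in orange. In every gene the SPOCK1 libraries lie above the controls, most closely for ATF6 in SPOCK1 library 1.

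Known targets of spliced XBP1 gave fewer calls than those of ATF6. This difference was not tested, and it depends on which list a gene was put in. SEL1L and SYVN1 stand in both lists. Of 16 XBP1 targets tested, 3 rose (PDIA6, DNAJB11 and DNAJC3) and 0 fell, against 0.247% of all genes rising. Their median log2 fold change was 0.22, with 16 of 16 positive values. The count was 2 to 3 with any library left out, 4 with DESeq2, 8 with GC content and length offsets, against 2.32% of all genes, and 0 within libraries 1 and 3. With those offsets 11 of 14 ATF6 targets rose. An unadjusted p under 0.05 in edgeR was found for 9 of 16 XBP1 targets and 12 of 14 ATF6 targets, against 13.7% of all genes tested. CPM ranges lay apart in 31.2% and 78.6% of them, against 8.23%. PDIA6, a disulfide isomerase that also binds IRE1, rose by 35.2% (adjusted p = 0.00333), with 25.2% of its exonic bases under exons of ATP6V1C2 on the other strand, and DNAJB11, a co-chaperone of HSPA5, rose 1.42-fold (adjusted p = 0.00367). DNAJB9, a co-chaperone that is used as a readout of spliced XBP1 and that holds IRE1 inactive, stood at 7.34, 4.81, 9.21 and 6.73 CPM in controls and at 10.1, 7.13, 7.65 and 6.58 with SPOCK1. The groups overlapped, and the fitted difference was 0.16 ± 0.18 on the log2 scale (adjusted p = 0.740). EDEM1, a mannosidase-like protein of glycoprotein degradation and another such readout, differed by 0.0030 ± 0.09 on the log2 scale (adjusted p = 0.992). Among 10 tested transcripts that IRE1 is known to degrade, 0 rose and 0 fell in edgeR and in DESeq2. In edgeR 0.247% of all genes rose and 0.798% fell. At an unadjusted p under 0.05 in edgeR there was 1 of the 10, against 13.7% of all genes tested, so this count is no result about these transcripts. It was the lipid enzyme DGAT2, which differed by -0.32 ± 0.13 on the log2 scale (adjusted p = 0.309). The partners of IRE1, such as the tRNA ligase RTCB that joins the cut XBP1 mRNA, gave 1 rise among 17 tested, against 0.247% of all genes. It was PDIA6, already counted with the XBP1 targets. With GC content and length offsets SEC61A1, also in both lists, rose too, against 2.32% of all genes.

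On the PERK side, DNAJC3, an inhibitor of PERK that is also counted among the XBP1 targets, rose 1.56-fold (edgeR, adjusted p = 0.0465). It was the 1 rise among 19 genes around eIF2, against 0.247% of all genes, and 0 fell. The list holds kinases, phosphatases and subunits, with NCK1, NCK2 and DNAJC3 itself. DNAJC3 no longer passed when control library 1, 2 or 4 or SPOCK1 library 1 or 3 was left out. Its adjusted p was then up to 0.155. Of the 19, 5 had an unadjusted p under 0.05 in edgeR, against 13.7% of all genes tested. CPM ranges lay apart in 4 (21.1%), against a background of 8.23%. Whether these shares differ was not tested. EIF2B1, EIF2B2 and EIF2B3, named after their values were seen, were in both counts, at log2 fold changes of 0.21, 0.22 and 0.30. They did not pass (adjusted p = 0.272, 0.268 and 0.197). On the other strand, exons of DDX55, AL049780.3 and CCNB1IP1P1 cover 14.8%, 20.2% and 10.2% of their exonic bases, in that order. ATF4 stood at 431.5, 453.6, 509.3 and 495.5 CPM in controls and at 581.9, 521.9, 489.1 and 498.5 with SPOCK1, with overlap (log2 fold change 0.15 ± 0.08, adjusted p = 0.448). Of 17 tested genes downstream of ATF4 and CHOP, ATF4 included, 1 rose and 0 fell, against 0.247% and 0.798% of all genes. DDIT4, an inhibitor of mTORC1 signalling named here after its values were seen, stood at a log2 fold change of -0.46 ± 0.12 (edgeR, adjusted p = 0.0747) and fell with DESeq2 (adjusted p = 0.0139) and with the GC content and length offsets, at an adjusted p of 0.0259. With those offsets ATF5 and TRIB3 also rose, which made 3 rises and 1 fall, against 2.32% and 1.61% of all genes. The rise in the reported fit was DDIT3, the gene of CHOP, also counted with the ATF6 targets, with a mean of 7.28 ± 1.38 CPM in controls against 12.9 ± 2.07 under SPOCK1 (SD, n = 4 each), a 1.77-fold rise (edgeR, adjusted p = 0.0112). Leaving out control library 1 or 2 ended the call, at adjusted p of 0.0522 and 0.0505. Exons of MARS, on the other strand, cover 27.2% of the exonic bases of DDIT3. Also on the other strand, exons of DDIT4-AS1 cover 41.2% of those of DDIT4, and exons of NUP62 cover 21.2% of those of ATF5.

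**Figure D5:**
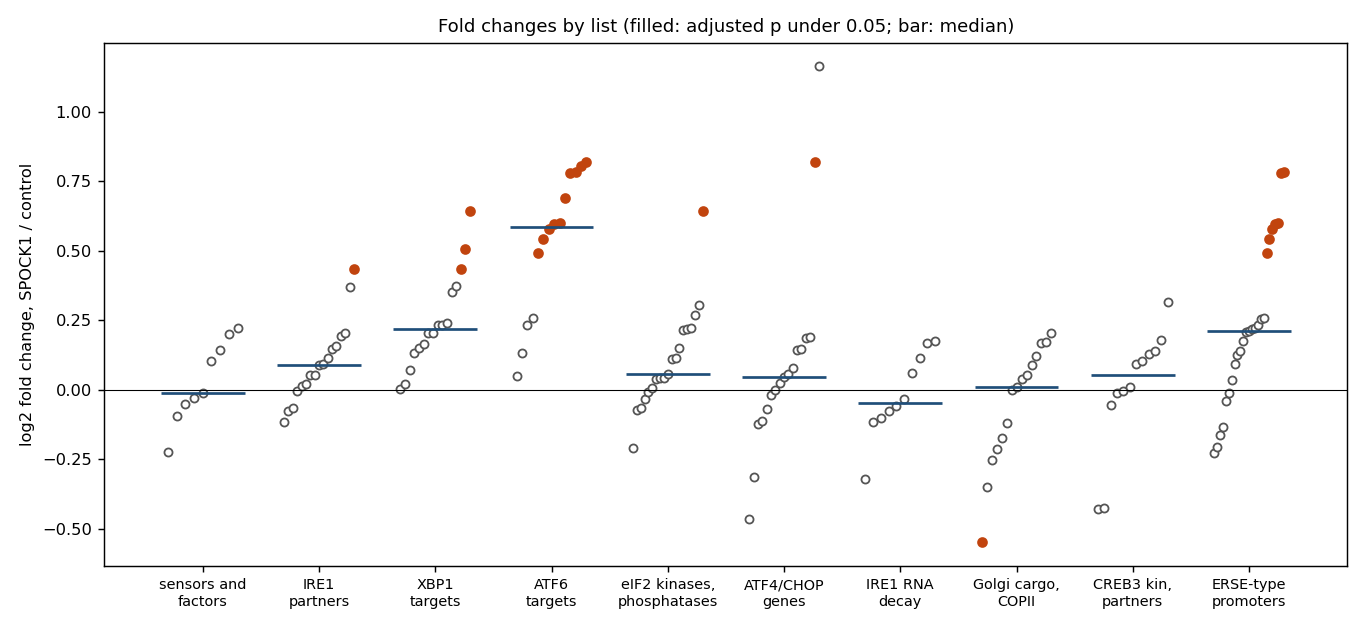
Log2 fold change of each tested gene by list, with filled orange points past an adjusted p under 0.05 and a bar at the median; a gene can stand in several lists. The medians were -0.01 for the sensors and factors, 0.22 for XBP1 targets and 0.59 for ATF6 targets.

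Of the genes that share the proteases or the family, INSIG1 alone was called in edgeR. Among 15 tested cargo and transport genes of the Golgi proteases, 1 fell, INSIG1, which retains SREBP factors in the endoplasmic reticulum. INSIG1 fell by 31.5% (adjusted p = 0.00204), and 0.798% of all genes fell. SREBF2, which encodes one of the SREBP factors and is named here after its values were seen, stood at a log2 fold change of -0.35 ± 0.08 (edgeR, adjusted p = 0.0625). It fell too with DESeq2 (adjusted p = 0.014) and under offsets for GC content and length, at an adjusted p of 0.0162. Of the 15, 4 had an unadjusted p under 0.05 in edgeR, against 13.7% of all genes tested. Beside INSIG1 and SREBF2 these were SREBF1 and SAR1A, named after their values were seen, at log2 fold changes of -0.25 and 0.21. CPM ranges lay apart in 4 of the 15 (26.7%), against 8.23%. Whether these shares differ was not tested. Among 12 tested relatives and partners of the CREB3 family 0 passed in edgeR or DESeq2, while 1.04% of all genes passed in edgeR. In edgeR 3 of the 12 had an unadjusted p under 0.05, against 13.7% of all genes tested. CREB3L4, a relative known from prostate and other epithelia, stood at 17.3, 17.7, 16.6 and 16.6 CPM in controls and at 14.2, 14.9, 11.6 and 10.1 with SPOCK1. The groups did not overlap, which held for 3 of the 12 relatives and partners (25.0%), against 8.23% of all genes tested. The log2 fold change of -0.42 ± 0.13 did not pass (edgeR, adjusted p = 0.131). CREB3L3, known from liver and intestine, had 2 counts over all controls and 0 over all SPOCK1 libraries.

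Genes with an ERSE or ERSE-II were then described whether or not they stood in a list. Of 31 protein-coding genes with such a promoter 25 were tested, and 7 rose and 0 fell, against 0.247% of all genes rising, with a median log2 fold change of 0.21. All 7 were ATF6 targets of the list, and the pattern was first described in genes such as HSPA5, so this count is not independent of the list. The other ATF6 targets that rose, MANF, PDIA4 and DDIT3, held neither element in the stretch searched. Their log2 fold changes were 0.80, 0.69 and 0.82. SYVN1 and SEL1L, which did not pass, held neither too, and DERL3 had no promoter there. Of the XBP1 targets SERP1 alone held a match, and PDIA6, DNAJB11 and DNAJC3 held none. Of the 10 tested genes that stood in a list, CANX, SERP1 and XBP1 did not pass, at log2 fold changes of 0.26, 0.23 and 0.22. Of the 15 tested genes outside the lists 0 rose and 0 fell in edgeR and DESeq2, and the median was 0.09. In edgeR 2 of the 15 had an unadjusted p under 0.05, against 13.7% of all genes tested, so this count is no result about these genes. The count of 7 was the same with any library left out, and 0 within libraries 1 and 3. The matched letters are shown for comparison with XBP1, in the direction of the element, with its fixed letters in capitals.
XBP1, not passed: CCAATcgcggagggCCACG
HSPA5, rose: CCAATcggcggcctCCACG
HSP90B1, rose: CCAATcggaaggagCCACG
HSP90B1, another match: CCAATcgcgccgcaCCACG
CALR, rose: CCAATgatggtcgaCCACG
CRELD2, rose: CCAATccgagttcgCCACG
CANX, not passed: CCAATcttcacactCCACG
SERP1, not passed: CCAATtcgctgtctCCACG
HERPUD1, rose: ATTGGgCCACG
SDF2L1, rose: ATTGGtCCACG
HYOU1, rose, in both of its matches: ATTGGaCCACG
A match is a description of letters and does not show that a factor binds there.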

How the data were processed

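RNA was sequenced in 8 SW480 libraries, grouped by their titles into 4 vector controls and 4 with SPOCK1 overexpression. The authors deposited raw counts of reads for each gene. The submitters' processing notes name CASAVA, featureCounts 1.5.0-p3 and HISAT2 2.0.5. Build, strand setting and handling of multiply mapped reads: not given in the sources used here. Start, end and strand of all 58735 genes were identical to GENCODE 29 (GRCh38).

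Genes passed filterByExpr (minimum count 10, minimum total 15), which left 15790. With TMM-scaled library sizes, the groups were compared by the quasi-likelihood F test of edgeR 4.0.16 in R 4.3.3, without covariates, with Benjamini-Hochberg adjustment over all genes tested. SE come from the F statistic. The alternatives were DESeq2 1.42.0, limma-voom (limma 3.58.1), upper-quartile or RLE factors, other filters, the replicate number as a block, library sizes without SPOCK1 or mitochondrial genes, offsets from natural splines (5 degrees of freedom) on GC content and length, libraries 1 and 3 or 2 and 4 alone, and each library left out. Libraries 1 and 3 were set apart from 2 and 4 because an earlier analysis found that they differ in GC trend. No molecular identifiers were used in counting, as far as the labels say, so reads are not independent molecules and limits from counts, such as the 3 counts that a count of 0 allows, cover counting error only. The fit was tested on simulated data.

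The members and lists were chosen with earlier results of these data known. Named by rule were the 10 genes, SPOCK1, the readouts HSPA5, HERPUD1, SDF2L1, DNAJB9, EDEM1, ATF4 and DDIT3, CREB3L3, CREB3L4, ERN2, and in each of 8 pathway lists the 2 called genes with the smallest p in each direction or, with none called, the 1 with the smallest p. The HSPA5 ratios, the longest-transcript lengths and the promoter search were added after seeing the data. All 149 list symbols were found, 1 of them through its current symbol.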

Additional observations from a re-analysis of the deposited data

Results flagged for a closer look

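Among 60 sets of 4 library values, of which chance alone marks about 1 in 20, 2 had a library far from the others. Both are near-absent genes. CREB3L3 stood at 0.054 CPM in control library 2, from 2 counts, and at 0 in the other controls. ERN2 stood at 0.0924 CPM in SPOCK1 library 3, from 4 counts, and at 0 in the other SPOCK1 libraries. For comparison, 3 counts correspond to 0.081 CPM in control library 2 and 0.0693 CPM in SPOCK1 library 3.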

How the results depend on the processing

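Under none of the 21 alternatives was a sensor, protease or factor called. In 177 of 189 values for the 9 tested genes the direction was that reported, and the exceptions were small: EIF2AK3 at 0.0269 within libraries 2 and 4 and from -0.1386 to 0.0214 without 1 library, upward without SPOCK1 library 1; ATF6B at 0.0371 and 0.0368 with GC content and length offsets, with and without the replicate block, and from -0.0602 to 0.006 without 1 library, upward (0.0056 and 0.006) without control library 2 or SPOCK1 library 1; MBTPS1 at 0.0668 and 0.0658 with those offsets, 0.0307 within libraries 2 and 4 and from -0.0301 to 0.0126 without 1 library, upward without control library 3. MBTPS2 ranged from -0.1543 to 0.0039 without 1 library, upward without control library 1, and CREB3 at -0.014 within libraries 2 and 4. EDEM1 was at -0.10 within libraries 1 and 3 and from -0.0387 to 0.0519 without 1 library, with a negative sign when control library 3 or 4 or SPOCK1 2 or 3 was absent. Over all genes 165 were called, against 378 with DESeq2, 399 with no filter beyond 1 count, 622 with GC content and length offsets (367 rises and 255 falls, against 39 and 126) and 8 within libraries 1 and 3. Leaving out 1 library gave 89 to 237 calls, with 96 without control library 2 and 90 and 89 without SPOCK1 library 2 and 3. The share of MBTPS1 differed by -0.3595 to 1.847 percentage points and that of CREB3L2 by -0.2874 to 0.6099 without 1 library. The cause of these movements was not tested. With the replicate number as a block 115 genes were called and 0 of the 9, and DDIT4 fell (-0.47, adjusted p = 0.042). Same-numbered libraries had correlations of their deviations of -0.0739 to 0.0817, and not every library correlated best with its own number, so the numbers were not taken as pairs.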

Other observations

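The sensors' factors belong to the basic leucine zipper (bZIP) class, which the deposited table marks in 48 genes, of which 44 were tested. In edgeR 2 rose, DDIT3 and FOSL1, and 2 fell, DBP and TEF, with a median log2 fold change of -0.08. Of all genes tested 0.247% rose and 0.798% fell. DESeq2 called the same 4 and a fall of MAFG (adjusted p = 0.0466). DBP and TEF are closely related factors known as outputs of the circadian clock. DBP fell by 0.95 ± 0.11 on the log2 scale (SE, adjusted p = 0.000221) and TEF by 0.46 ± 0.10 (adjusted p = 0.0293). FOSL1, a partner of JUN in AP-1, rose by 0.48 ± 0.09 (adjusted p = 0.0104). These genes were named because they were calls of the class, after their values were seen.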
